A study of Bos taurus with 12 samples.

Results

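Histone deacetylases were followed in cells of bovine 2-cell embryos whose sister cells had known developmental fates. The members were 10 genes of the family (HDAC1 to HDAC9 and HDAC11), and every probe whose symbol in the array's probe table was one of them was taken. This gave 7 probes, 1 each for HDAC1, HDAC2, HDAC3, HDAC5, HDAC6, HDAC8 and HDAC11, of 43793 probes tested and 21790 with a gene symbol. No probe carried the symbol HDAC4, HDAC7 or HDAC9, so these 3 genes were not analysed here. With 1 probe per gene, no second probe could be set against any value. The family was chosen by measured values: it was selected on earlier results of both comparisons, above all the ratio of HDAC1 in BL against 8CB. The members' ratios are therefore a description, and counts at a threshold stand beside the share of all probes without being read as evidence.

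Histone deacetylases remove acetyl groups from lysines of histones and other proteins, and on chromatin this is associated with repression. Class I enzymes are mostly nuclear and act inside complexes: HDAC1 and HDAC2, closely related catalytic subunits, in Sin3, NuRD, CoREST and MiDAC, and HDAC3 with the corepressors NCoR and SMRT. HDAC8 acts outside these complexes and deacetylates the cohesin subunit SMC3. Class IIa enzymes such as HDAC5 shuttle between nucleus and cytoplasm and bind MEF2 factors, HDAC6 is a cytoplasmic deacetylase of tubulin, and HDAC11 is the single class IV enzyme. In mouse preimplantation embryos HDAC1 is known as a main deacetylase of histones. At the 2-cell stage the transcripts of a bovine embryo are largely maternal, since major genome activation comes several divisions later.

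Each 2-cell embryo (Bos taurus) was split, with 1 blastomere grown alone in vitro to day 7 and its sister frozen. The fate of the cultured sister decided the pool of each frozen cell: BL where it became a blastocyst, 2CB where it did not divide again, and 8CB where it stopped early. The labels use the name 8CB but describe an arrest at 4 cells, so only the name is used. Each class had 3 independent pools, each of 15 blastomeres, and their amplified RNA was hybridised on two-colour arrays, BL against 2CB on 6 arrays and BL against 8CB on 6, with replicate numbers 1 to 3 and each dye orientation on 3 arrays. A pool mixes cells of many embryos, its class is the fate of other cells, and in pools fewer cells with a transcript and less transcript per cell cannot be told apart. Both comparisons share BL.

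The values are deposited log ratios, taken as log2, with no intensities, so no level, background or depth can be given, and precision is limited by how few arrays there are. Swapped arrays of 1 replicate number deviated from their group means in the same direction in 5 of 6 pairs as deposited (r from 0.25 to 0.80 across probes), the exception being replicate 3 of BL against 8CB at -0.22. They were therefore averaged as deposited, and which class is the numerator stayed unsettled. Without subtracting group means, the deposited ratios of these pairs correlated at only -0.04 to 0.56. Mean ratios of both orientations correlated at 0.23 against 2CB and 0.10 against 8CB. Agreement between the ratios that were averaged was thus weak in most pairs. Values with signs set by the dye labels, as BL over the arrested class, are called turned and are given for the members, the lists and the named partner genes. In 5 pairs of arrays, all of opposite orientation, the ratios correlated below -0.3: the array of 8CB in Cy5, replicate 1, with 4 arrays (-0.38 to -0.51), and 2CB in Cy5, replicate 3, with BL in Cy5 against 8CB, replicate 1 (-0.55). As deposited, markers of cumulus and granulosa cells (17 genes), sperm and testis (14) and blood (13) had medians between -0.03 and 0.03 in both comparisons. Of each list 0 or 1 gene stood at an unadjusted p under 0.05. Turned, their medians lay between -0.05 and 0.07. Against 2CB and 8CB, 5 and 2 cumulus and granulosa genes then stood at that threshold. For sperm and testis these counts were 3 and 2, and for blood 1 and 2, where 28.3% and 24% of all genes did. As deposited, the 15 oocyte and early embryo genes had a median of 0.36 against 2CB (-0.47 to 0.98) and 0.23 against 8CB (-0.34 to 0.55). In each comparison 11 were positive, where 54.7% and 51.9% of all probes were, shares per probe beside a list counted per gene. At an unadjusted p under 0.05 stood 10 and 3, where 18% and 11% of all genes did. Turned, the medians of these 15 genes were 0.09 and 0.07. In each comparison 4 of them stood at that threshold, where 28.3% and 24% of all genes did when turned. Their part in the ratios below was not tested.

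BL against 8CB asks which transcripts of a 2-cell blastomere differ with the later fate of its sister, blastocyst or an early stop after further division. HDAC1 stood at 0.74 ± 0.11 (log2 ratio as deposited, SE, n = 3), a 1.67-fold difference, and HDAC11 at 0.34 ± 0.08, a 1.27-fold difference. These were positive on 6 of 6 arrays. The other 5 members lay between -0.08 and 0.11. Of all probes, 0.185% had a larger absolute ratio than HDAC1 and 5.41% a larger one than HDAC11, whereas with turned ratios these shares were 64.9% and 94.8%.

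For HDAC1 the arrays with 8CB in Cy5 gave 0.46, 0.47 and 1.13 for replicates 1 to 3. The arrays with BL in Cy5 gave 1.26, 0.63 and 0.49. Every array was thus positive, but the 2 values above 1 came from different replicates and opposite dyes. Averaged over each swapped pair, the 3 replicates were 0.86, 0.55 and 0.81, with an SD of 0.17 and a 95% interval of the mean from 0.47 to 1.00. Leaving out single arrays moved the mean between 0.60, without BL in Cy5 of replicate 1, and 0.87, without 8CB in Cy5 of replicate 1.

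HDAC11 gave 0.43, 0.12 and 0.45 with 8CB in Cy5 and 0.29, 0.36 and 0.41 with BL in Cy5. Its values were less spread than those of HDAC1, with replicate averages of 0.36, 0.24 and 0.43, an SD of 0.09 and a 95% interval from 0.15 to 0.54. Without any single array the mean stayed between 0.30 and 0.38.

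HDAC2, the close relative of HDAC1, did not share its pattern against 8CB. Its 6 arrays ran from -0.38 to 0.84 with 3 above 0, the replicate averages were 0.37, -0.09 and -0.06, and the mean was 0.07 ± 0.12. HDAC3 lay at -0.08 ± 0.08 and was the single member on the negative side. Its replicate averages of -0.12, -0.02 and -0.10 kept that side, although 3 of its 6 arrays were positive. HDAC8 was the most scattered member: its arrays reached from -1.03 to 0.83, and the mean of 0.11 ± 0.18 had a 95% interval from -0.34 to 0.57. Its replicate 1 held both the lowest array, with BL in Cy5, and the highest, with 8CB in Cy5. The sign of these 3 means rested on single arrays: without 8CB in Cy5 of replicate 1, HDAC2 lay at -0.09 and HDAC8 at -0.20, and without BL in Cy5 of replicate 3, HDAC3 lay at 0.005.

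HDAC5 stayed closest to a fixed small value, with replicate averages of 0.11, 0.07 and 0.08 and a mean of 0.09 ± 0.04 (95% interval -0.02 to 0.19). Its arrays lay between -0.02 and 0.19, so the interval leaves out differences as large as that of HDAC1. HDAC6 lay at 0.04 ± 0.11 with replicate averages of 0.08, 0.14 and -0.10, and its arrays split into 4 positive and 2 negative.

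**Figure D1:**
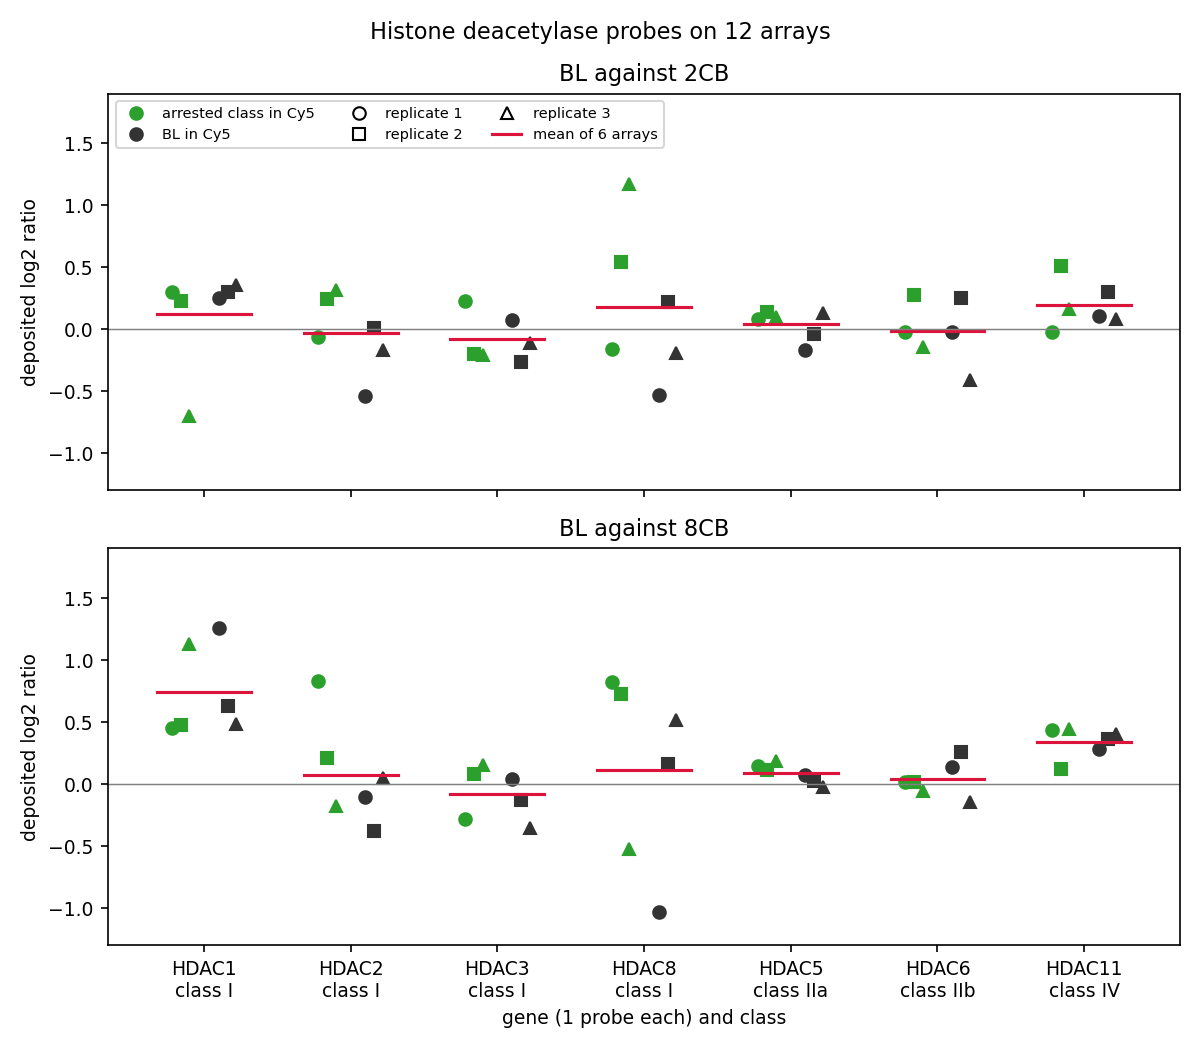
Deposited log2 ratio (vertical axis) of each histone deacetylase probe on the 6 arrays of BL against 2CB (top) and of BL against 8CB (bottom); colour gives the dye orientation, symbol the replicate number, and the red line the mean. HDAC1 and HDAC11 are above 0 on all 6 arrays of BL against 8CB, and HDAC8 spreads from -1.03 to 1.17 over the 12 arrays.

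In BL against 8CB no probe, 0 of 43793 (0%), had an adjusted p under 0.05 in limma, and so 0 of the 7 members. The means of 6 of 7 members were positive, where 51.9% of all probes were. At an unadjusted p under 0.05 stood 2 of 7 members, HDAC1 and HDAC11, both positive, where 9.78% of all probes did and 4.67% did on the positive side. The same 2 were positive on 6 of 6 arrays, as were 2.73% of all probes, and 5.85% kept either side. One side in 3 of 3 replicates was kept by 4 members (HDAC1, HDAC5 and HDAC11 positive, HDAC3 negative), against 27.7%. In the fit of 12 single arrays with the replicate number as a random block, which called 5.69% of probes and 0 members against 2CB, HDAC11 was among the 798 probes (1.82%) of BL against 8CB with an adjusted p under 0.05 and HDAC1 was not. The median of the members was 0.09, and that of all probes 0.003.

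The comparison of BL with 2CB poses this question for sisters that never divided again. Here the 7 members lay between -0.08 and 0.19, and 0 of 7 reached an unadjusted p under 0.05 where 16.6% of all probes did. HDAC11 was again positive, at 0.19 ± 0.08, and HDAC1 lay at 0.12 ± 0.11. The 95% intervals of all 7 members in this comparison held 0.

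HDAC1 gave 0.30, 0.23 and -0.70 with 2CB in Cy5, and 0.25, 0.30 and 0.36 with BL in Cy5. It was thus positive on 5 of 6 arrays, and the exception, replicate 3 with 2CB in Cy5, set the replicate averages of 0.27, 0.27 and -0.17. Without that array the mean was 0.30, and without its swapped partner it was -0.05. This array and the highest HDAC1 array of BL against 8CB form the pair that correlated at -0.55 over all probes.

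HDAC11 gave -0.02, 0.51 and 0.16 with 2CB in Cy5, and 0.10, 0.30 and 0.09 with BL in Cy5. All but the first of these were positive. Its replicate averages were 0.04, 0.41 and 0.12, and the 95% interval ran from -0.003 to 0.39. HDAC11 was the single member to keep 1 side in 3 of 3 replicates against 2CB, where 43.1% of all probes did.

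The remaining class I genes had no common side against 2CB. HDAC2 had replicate averages of -0.30, 0.13 and 0.07 and a mean of -0.03 ± 0.12. HDAC3 had 0.15, -0.23 and -0.16 and a mean of -0.08 ± 0.08, the same mean as against 8CB. HDAC8 had -0.34, 0.38 and 0.49, a mean of 0.18 ± 0.18 and an interval from -0.28 to 0.63. Its highest array, 1.17 with 2CB in Cy5 of replicate 3, had a swapped partner at -0.19, and without it the mean was -0.05. HDAC3 was thus negative as a mean and HDAC8 positive in both comparisons, while HDAC2 changed sides, and none of these 3 kept 1 side in 3 of 3 replicates against 2CB.

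HDAC5 had replicate averages of -0.04, 0.05 and 0.11 against 2CB and a mean of 0.04 ± 0.04. The interval from -0.06 to 0.15 was the narrowest among the members in this comparison. HDAC6 had -0.02, 0.26 and -0.28, a mean of -0.01 ± 0.11. Its replicates 2 and 3 lay on opposite sides in both dye orientations.

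No probe of BL against 2CB (0%) had an adjusted p under 0.05 in limma. With the replicate number as a fixed block, by which the pools were taken to be paired, 1395 probes (3.19%) did, and 0 of 7 members. On 6 of 6 arrays 12.7% of all probes kept 1 side and 0 of 7 members did. The median of the members was 0.04, with 4 positive and 3 negative, where 54.7% of all probes were positive and their median was 0.01.

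Set side by side, HDAC1 was the member whose ratios lay farthest apart between the comparisons, 0.12 against 2CB and 0.74 against 8CB, a difference of -0.62 ± 0.15 as deposited. Turned, the difference was 0.13 ± 0.21, of the opposite sign. The contrast of both comparisons called 0 of all probes (0%) at an adjusted p under 0.05, while 4.53% had an unadjusted p under 0.05. Without the array of 2CB in Cy5 of replicate 3, HDAC1 lay at 0.30 against 2CB. For HDAC11 the difference was -0.15 ± 0.11, and for the other 5 members it lay between -0.11 and 0.06, smaller than its SE in each. Over all 12 arrays HDAC1 and HDAC11 were each positive on 11, and 2.57% of all probes were positive on at least 11.

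**Figure D2:**
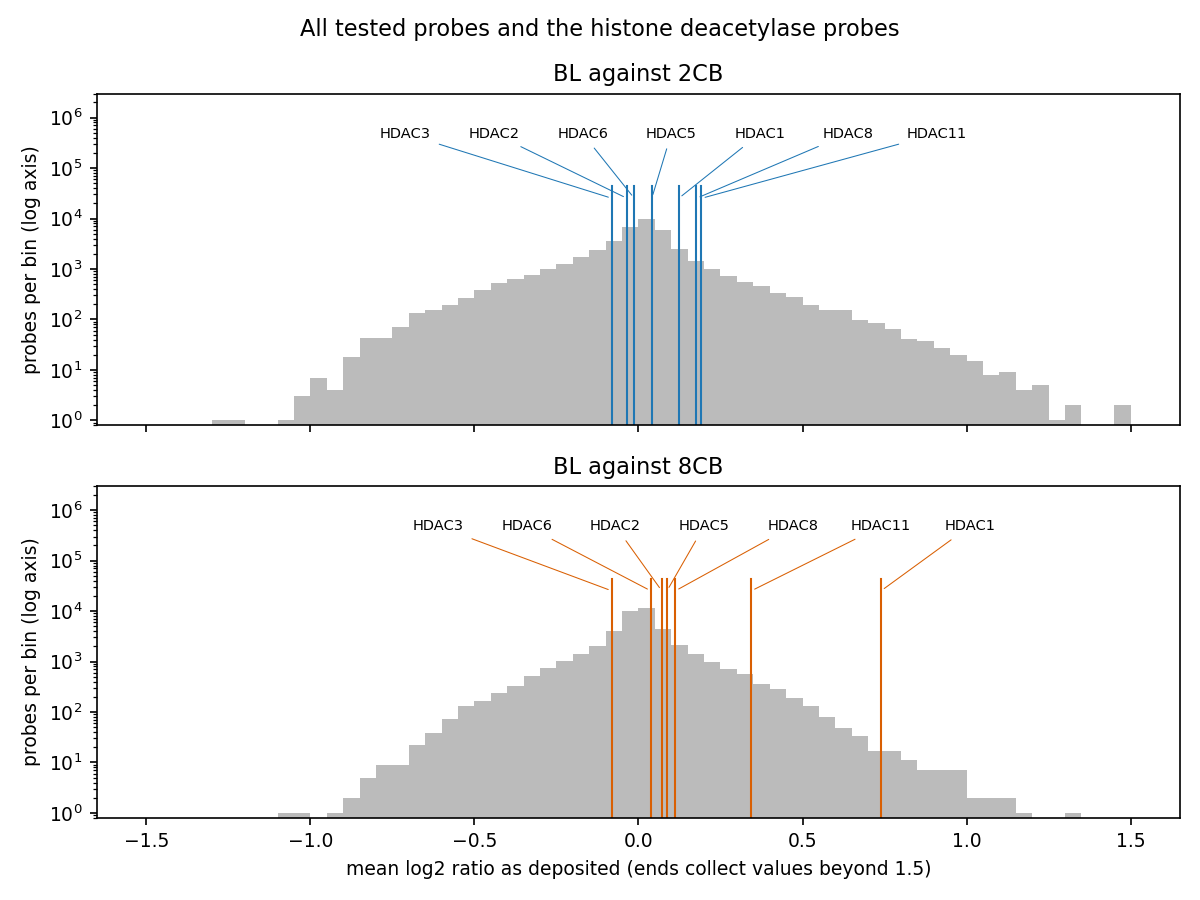
Number of probes (log axis) by mean log2 ratio as deposited, in bins of 0.05, for both comparisons, with a vertical line at each histone deacetylase. HDAC1 at 0.74 and HDAC11 at 0.34 stand toward the positive end in BL against 8CB, and all 7 members lie between -0.08 and 0.19 in BL against 2CB.

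The members differed in how far their ratios scattered. Over the 12 arrays the SD was 0.65 for HDAC8 and 0.49 for HDAC1, against a median of 0.19 over all probes, and 2.34% and 6.25% of probes had a larger SD. HDAC2 followed at 0.36. HDAC6 (0.20), HDAC3 (0.19) and HDAC11 (0.17) were close to the median probe, and HDAC5 at 0.10 was below 87.9% of probes. Without intensities, how much of this scatter comes from dim spots was not tested.

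When signs were instead set by the dye labels, the values of the family differed. HDAC1 then lay at 0.18 ± 0.15 for BL over 2CB and at 0.05 ± 0.15 over 8CB, with replicates of 0.40, 0.08 and -0.32 in the latter. HDAC11 lay at -0.03 ± 0.05 and 0.01 ± 0.05. Both genes, which had the highest positive ratios against 8CB as deposited, were thus within 1 SE of 0 over 8CB in this reading, since their arrays of opposite orientation cancelled.

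HDAC2 and HDAC8 showed the reverse. On average, their arrays with the arrested class in Cy5 lay higher than those with BL in Cy5 in both comparisons. For HDAC2 the means of these orientations were 0.16 and -0.23 against 2CB, and 0.29 and -0.15 against 8CB. For HDAC8 they were 0.52 and -0.17, and 0.34 and -0.12, with SDs of 0.67 and 0.37, and 0.75 and 0.81. Replicate 3 against 8CB went the other way for both genes. HDAC2 gave -0.18 there with 8CB in Cy5 and 0.05 with BL in Cy5, and HDAC8 gave -0.53 and 0.51. Turned by the dyes, HDAC2 lay at -0.20 ± 0.10 for BL over 2CB and -0.22 ± 0.10 over 8CB, negative on 4 of 6 arrays in each. HDAC8 lay at -0.34 ± 0.24 and -0.23 ± 0.24, on 4 and 3 negative arrays. As long as the direction of the deposited ratios is unsettled, a dye effect on these probes and a difference between the classes cannot be told apart. The same limit holds for HDAC1 and HDAC11 against 8CB, whose orientation means had the same sign. With 8CB in Cy5 and with BL in Cy5 these means were 0.69 and 0.79 for HDAC1, and 0.34 and 0.35 for HDAC11.

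The remaining members stayed near 0 in the turned reading. HDAC5 lay at -0.07 ± 0.04 over 2CB and -0.06 ± 0.04 over 8CB, the opposite side from its deposited means. HDAC3 lay at -0.02 ± 0.08 and -0.07 ± 0.08, and HDAC6 at -0.05 ± 0.05 and 0.05 ± 0.05. The turned fit called 3562 probes (8.13%) against 2CB and 2028 (4.63%) against 8CB at an adjusted p under 0.05 in limma, and 0 members in either. No member kept 1 side on 6 of 6 turned arrays, where 16.6% and 12.8% of all probes did. At an unadjusted p under 0.05, 29.2% and 25.1% of all probes passed and 0 of 7 members did. In each comparison 4 of 7 members had the same sign in both readings.

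**Figure D3:**
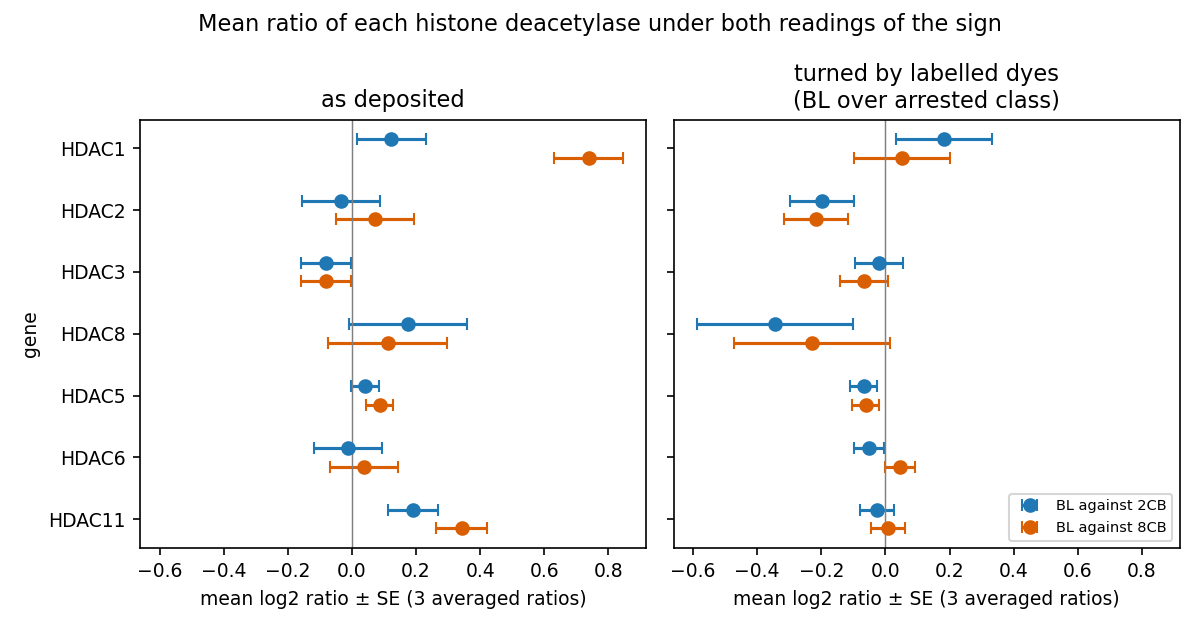
Mean log2 ratio ± SE over 3 averaged ratios (horizontal axis) of each histone deacetylase, as deposited (left) and turned by the labelled dyes to BL over the arrested class (right). HDAC1 in BL against 8CB lies at 0.74 on the left and 0.05 on the right, whereas HDAC2 lies at -0.03 and 0.07 on the left and at -0.20 and -0.22 on the right.

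By root mean square difference over the 12 deposited ratios, the genes most like HDAC1 were the myosin light chain MYL12B (0.23), the secreted glycoprotein STC1 (0.24), LOC786299 (0.25), the nucleolar protein RSL1D1 (0.25) and the splicing regulator MBNL1 (0.26). The median probe was 0.67 away. The 5 genes were picked for closeness over these same ratios, so sharing the pattern of HDAC1 follows from the selection. They lay at 0.04 to 0.23 against 2CB and at 0.51 to 0.97 against 8CB. Of the other members HDAC11 was nearest to HDAC1, at 0.47, and 1.76% of all probes were nearer still. HDAC2 was 0.77 away, farther than 82.5% of probes, and HDAC8 was 1.05 away, farther than 97.6%. A probe at 0 on every array would be 0.64 from HDAC1. This measure takes in level and scatter, so whether HDAC2 and HDAC1 rose and fell together was not tested.

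The proteins that work with these enzymes were described from 10 lists with 104 measured genes, each gene as the mean of its probes. At an adjusted p under 0.05 limma called 0 of 15214 genes (0%) in either comparison. At an unadjusted p under 0.05 stood 36 of the 104 against 2CB (34.6%, 20 positive and 16 negative), where 18% of all genes did, and 23 against 8CB (22.1%, 13 positive and 10 negative), where 11% did. Their medians were -0.003 and -0.02, beside 0.01 and 0.004 for all genes. Turned, 32 of the 104 stood at that threshold against 2CB and 26 against 8CB, where 28.3% and 24% of all genes did, and the medians were -0.02 and -0.03. Values of named genes below are as deposited unless called turned, with the value against 2CB first. The lists were chosen with results of these data known, so these shares are descriptive.

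Among partners of HDAC1 and HDAC2, the NuRD list had 6 of 10 genes at an unadjusted p under 0.05 against 2CB, 5 positive and 1 negative, and 4 of 10 against 8CB, 2 on each side. GATAD2B, a NuRD scaffold, lay at 0.46, 0.38 and 0.28 in the 3 replicates against 2CB, a mean of 0.37 ± 0.07, and at 0.05 ± 0.07 against 8CB. The histone-binding RBBP7 went the other way at -0.77, -0.73 and -0.53, a mean of -0.68 ± 0.14, and lay at -0.39 ± 0.14 against 8CB. CDK2AP1, a small NuRD-associated protein, lay at 0.28 ± 0.06 and 0.15 ± 0.06. As deposited, subunits of this complex thus lay on both sides, while HDAC1 and HDAC2 lay at 0.12 and -0.03 against 2CB. Turned, 3 and 2 of the 10 genes stood at that threshold. RBBP7 then lay at 0.02 ± 0.12 and -0.09 ± 0.12, and GATAD2B at 0.0008 ± 0.07 and -0.11 ± 0.07, so neither kept its deposited value.

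The Sin3 list had 3 of 13 genes at an unadjusted p under 0.05 against 2CB and 4 of 13 against 8CB. ARID4A, a chromatin-binding subunit, had replicates of 0.42, 0.54 and 0.40 against 8CB, a mean of 0.46 ± 0.07, and 0.29 ± 0.07 against 2CB. SAP30L had -0.52, -0.48 and -0.39 against 2CB, a mean of -0.46 ± 0.06, and -0.27 ± 0.06 against 8CB. SAP18 lay at -0.08 ± 0.04 and -0.17 ± 0.04. Turned, 8 and 7 of the 13 genes stood at that threshold, but ARID4A lay at 0.20 ± 0.11 and 0.04 ± 0.11 and SAP30L at -0.03 ± 0.06 and -0.08 ± 0.06. SAP18 lay at -0.17 ± 0.04 and -0.10 ± 0.04 and so stayed negative in both readings.

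Of 8 CoREST genes 2 stood at an unadjusted p under 0.05 in each comparison. KDM1A, the histone demethylase of the complex, lay at 0.29 ± 0.09 in both, and ZMYM3 at -0.15 ± 0.04 in both. The corepressor RCOR2 spread widely, with replicate averages from -0.54 to 1.57 against 8CB. In the HDAC3 complexes 2 of 6 genes stood there against 2CB and 1 of 6 against 8CB. GPS2 lay at 0.55 ± 0.10 and 0.50 ± 0.10, and TBL1XR1 at -0.41 ± 0.11 and -0.23 ± 0.11, around an HDAC3 of -0.08 in both. The corepressor NCOR1 itself lay at -0.14 ± 0.09 and 0.02 ± 0.09. MiDAC had 2 measured genes, TRERF1 at 0.27 ± 0.09 and 0.11 ± 0.09 and DNTTIP1 at -0.04 ± 0.05 and -0.06 ± 0.05. Most of these values were nearer to 0 when turned. KDM1A then lay at 0.03 ± 0.07 and -0.03 ± 0.07, GPS2 at 0.12 ± 0.05 and 0.03 ± 0.05, and TBL1XR1 at -0.10 ± 0.05 and -0.09 ± 0.05. ZMYM3 lay at -0.17 ± 0.05 and -0.10 ± 0.05, NCOR1 at -0.10 ± 0.05 and -0.11 ± 0.05, RCOR2 at -0.10 ± 0.11 and 0.13 ± 0.11, TRERF1 at -0.02 ± 0.09 and -0.09 ± 0.09, and DNTTIP1 at -0.04 ± 0.05 and -0.01 ± 0.05. Turned counts at that threshold were 4 and 3 of 8 for CoREST, 0 and 1 of 6 for the HDAC3 complexes and 0 of 2 for MiDAC.

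Of the enzymes that add acetyl groups, 4 of 10 had positive means against 2CB and 2 of 10 against 8CB. The list median against 8CB was -0.07, beside 0.004 for all genes. Of the proteins that read acetyl-lysine, 6 and 7 of 14 were positive. Of all probes, 54.7% were positive against 2CB and 51.9% against 8CB. These shares are per probe, while the lists are per gene. Of 10 histone acetyltransferases 3 stood at an unadjusted p under 0.05 against 2CB and 1 against 8CB: KAT8, which acetylates histone H4, lay at 0.50 ± 0.14 and 0.46 ± 0.14, CREBBP at -0.48 ± 0.16 and -0.10 ± 0.16, and NCOA3 at -0.31 ± 0.08 and -0.07 ± 0.08. Among 14 acetyl-lysine readers 5 stood there against 2CB and 1 against 8CB. BRPF1 lay at 0.41 ± 0.09 against 2CB but -0.08 ± 0.09 against 8CB, BRPF3 at 0.31 ± 0.12 and 0.21 ± 0.12, and BRD9 at -0.27 ± 0.09 and -0.34 ± 0.09. Of 7 sirtuins, the NAD-dependent deacetylases, 3 stood there against 2CB and 2 against 8CB. SIRT4 lay at 0.20 ± 0.06 and 0.22 ± 0.06, SIRT1 at -0.11 ± 0.09 and -0.26 ± 0.09, and SIRT5 at -0.13 ± 0.05 and -0.03 ± 0.05.

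Turned, these genes lay elsewhere. KAT8 was at 0.26 ± 0.11 and 0.13 ± 0.11, CREBBP at -0.09 ± 0.04 and -0.08 ± 0.04, and NCOA3 at -0.01 ± 0.06 and 0.08 ± 0.06. BRPF1 took the opposite sign against 2CB, at -0.12 ± 0.04, and lay at -0.004 ± 0.04 against 8CB. BRPF3 was at -0.01 ± 0.06 and -0.03 ± 0.06, and BRD9, negative in both readings, at -0.16 ± 0.06 and -0.08 ± 0.06. SIRT4 was at -0.03 ± 0.05 and -0.11 ± 0.05, SIRT1 at -0.12 ± 0.04 and -0.02 ± 0.04, and SIRT5 at -0.02 ± 0.05 and 0.07 ± 0.05. Turned counts at an unadjusted p under 0.05 were 2 and 1 of 10 acetyltransferases, 5 and 4 of 14 readers and 2 and 2 of 7 sirtuins.

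Partners and kinases of class IIa enzymes such as HDAC5 had 5 of 20 genes at an unadjusted p under 0.05 in each comparison. PRKD3, a kinase of the family that phosphorylates class IIa deacetylases, had near-equal replicates of -0.34, -0.35 and -0.33 against 2CB and a mean of -0.15 ± 0.05 against 8CB. RFXANK lay at 0.23 ± 0.05 and 0.26 ± 0.05, and CAMK2D at 0.14 ± 0.07 and 0.27 ± 0.07. Substrates and partners of HDAC6 and HDAC8 had 6 of 14 against 2CB and 3 of 14 against 8CB. PLAA, a ubiquitin-binding partner of VCP, lay at -0.41 ± 0.08 and -0.27 ± 0.08, the chaperone HSP90AB1 at 0.36 ± 0.10 and 0.41 ± 0.10, and ESCO1, which acetylates the cohesin subunit that HDAC8 deacetylates, at -0.53 ± 0.11 and 0.02 ± 0.11. Turned, PRKD3, PLAA and HSP90AB1 changed sign, to 0.13 ± 0.06 and 0.02 ± 0.06, to 0.15 ± 0.06 and 0.07 ± 0.06, and to -0.12 ± 0.07 and -0.15 ± 0.07. CAMK2D changed sign as well, to -0.05 ± 0.04 and -0.04 ± 0.04. ESCO1 lay at -0.26 ± 0.07 and -0.27 ± 0.07, a change of sign against 8CB only. RFXANK kept its side and size, at 0.19 ± 0.06 and 0.21 ± 0.06. Turned counts were 4 and 3 of 20 for the class IIa list and 4 and 3 of 14 for the HDAC6 and HDAC8 list.

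Turned by the labelled dyes, 5 of the 104 genes passed an adjusted p of 0.05 in limma against 2CB (5.96% of all genes did) and 3 against 8CB (2.94%). CDK2AP1 and the tubulin deacetylase SIRT2 passed in both. CDK2AP1 lay at 0.31 ± 0.04 for BL over 2CB and 0.22 ± 0.04 over 8CB (adjusted p = 0.0124 and 0.0380). SIRT2 lay at 0.56 ± 0.09 and 0.46 ± 0.09 (adjusted p = 0.0212 and 0.0442). The others were ING1, ING2 and RCOR1 over 2CB and RCOR3 over 8CB, and these names except CDK2AP1 were chosen after their values were seen. As deposited SIRT2 lay at 0.31 ± 0.12 and 0.24 ± 0.12. SIRT2, CDK2AP1 and RFXANK were thus among the genes positive in both readings and both comparisons. Both readings use the same arrays. A gene keeps its sign in both whenever its mean with BL in Cy5 is farther from 0 than its mean with the arrested class in Cy5. Keeping a sign therefore does not settle the direction of the ratio.

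**Figure D4:**
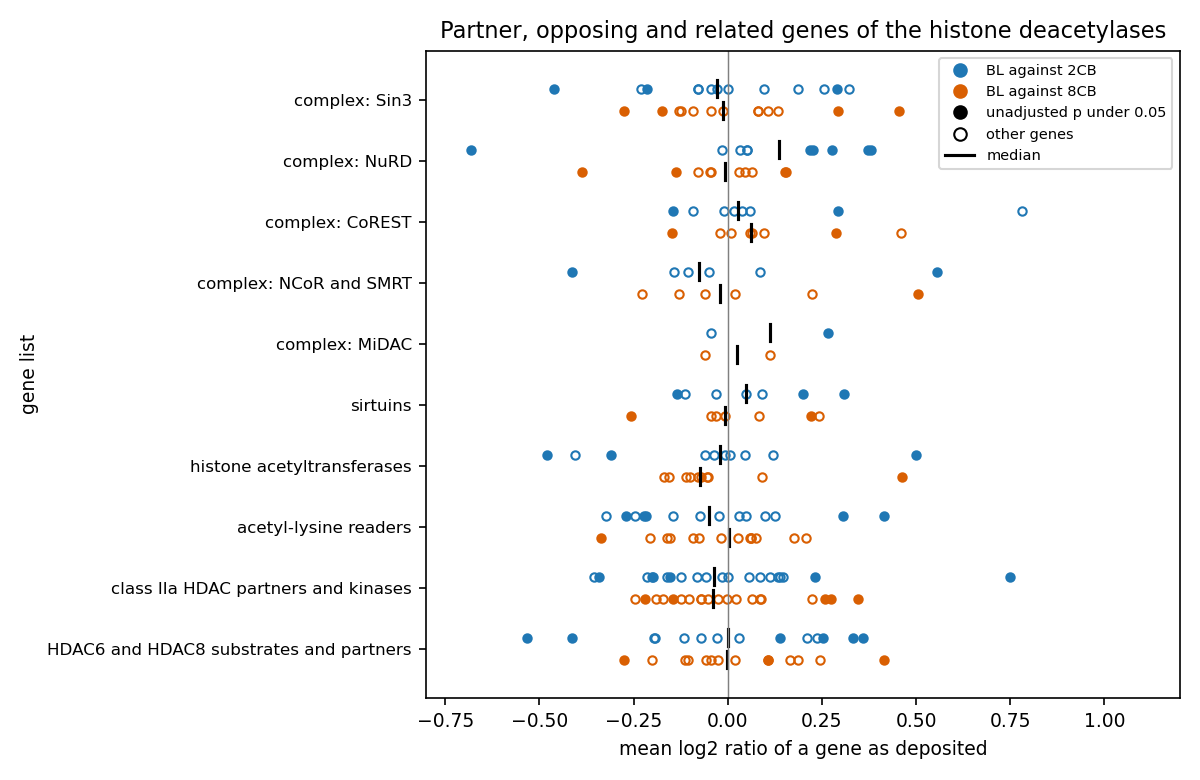
Mean log2 ratio as deposited (horizontal axis) of each measured gene in the 10 lists of partners, opposing enzymes and readers, for both comparisons; filled points have an unadjusted p under 0.05 and black bars are list medians. Every list of the class I complexes with more than 2 measured genes has genes on both sides of 0.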

How the data were processed

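For 12 two-colour arrays the values are log ratios as the authors deposited them, taken as log2, the base being unstated. Per the submitters' processing notes limma was used, its version not given. Not given in the sources used here are array normalization, filters, genome build, slides and scans. Column medians lay between -0.003 and 0.010; the direction of the ratio is unknown. From 43795 rows, 1 lacking a value and 1 that is no numbered probe were dropped. Of 21790 probes with a symbol (22003 had none), 1644 were renamed through RefSeq names (assembly ARS-UCD2.0), 20068 were current and 78 kept. No coordinates or probe sequences were used.

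Swapped arrays of 1 number were averaged, and the 6 averages fitted with lmFit and eBayes (limma 3.58.1, R 4.3.3), both comparisons sharing 1 spread, with Benjamini-Hochberg adjustment over all probes. For lists, genes were fitted as means of their probes. The fit was tested on simulated data. The main fit had no term for the replicate number, so its SEs and p-values treat the 6 averages as independent. Deviations of equal replicate numbers correlated between comparisons at 0.30, 0.39 and 0.35. The numbers were therefore taken to pair the samples in the alternatives with a replicate block, and only there. The labels do not say which pools are shared. Pools are separate by the labels, and p-values cover the spread between them.

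Members and lists were chosen with earlier results of these data known. All member probes are described; per list, up to 3 genes with the smallest p in either comparison are named, and 5 genes closest to HDAC1. Alternatives were the labelled dyes, replicate blocks, single arrays, 1 orientation, separate fits, gene means, robust moderation, centring, scaling or quantile normalization, omission of the smallest mean absolute ratios (quantile 0.25), a threshold of 0.10 and each replicate left out. Leaving out each array was added after seeing the data. Figures used matplotlib 3.10.9 in Python 3.11.15.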

Additional observations from a re-analysis of the deposited data

How the results depend on the processing

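The counts of calls over all probes depended on how arrays were combined. Against 0 as reported, probes at an adjusted p under 0.05 in limma numbered, for BL against 2CB and BL against 8CB, 3562 and 2028 turned by the labelled dyes, 2492 (5.69%) and 798 with the random replicate block, 3826 and 1386 with 12 independent arrays, 4220 and 1407 with BL in Cy5 alone, and 336 and 92 at a threshold of 0.10. The fixed replicate block gave 1395 against 2CB and 0 against 8CB. Independent arrays gave 7 probes for the difference between the comparisons. Leaving out replicates gave 0 throughout, and leaving out single arrays 0 to 151 against 2CB (151 without 2CB in Cy5 of replicate 3, 40 without 8CB in Cy5 of replicate 1) and 0 against 8CB. The cause was not tested.

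Members at an unadjusted p under 0.05 numbered 0 against 2CB and 2 against 8CB as reported. Against 2CB there was 1 with the random replicate block (19.6% of all probes), 1 with independent arrays (23.8%) and 1 with BL in Cy5 alone (29.6%), HDAC11 each time, 0 to 2 without a replicate (HDAC3 and HDAC8 without replicate 1, 17.3%) and 0 to 1 without an array. Against 8CB there were 0 with the labelled dyes (25.1%), 1 to 2 without a replicate (HDAC1 alone without replicate 3, 4.57%), and 3 with independent arrays (14.9%) and with the arrested class in Cy5 alone (14.2%), HDAC5 being the third in each. HDAC11 passed an adjusted p of 0.05 against 8CB with the random block, and HDAC1 and HDAC11 did with independent arrays and with BL in Cy5 alone. No other call of a member changed under the blocks. Of 390 member values under these alternatives, 20 moved by at least 1 SD of the replicates, 8 of them with the labelled dyes. The labelled dyes changed the sign of HDAC5, HDAC8 and HDAC11 against 2CB and of HDAC2, HDAC5 and HDAC8 against 8CB. Many of the 390 could not move, so the small share that did is no measure of stability. Replicate blocks, independent arrays, separate fits, robust moderation and the filter leave a mean as it is. Leaving out an array leaves the other comparison as it is. The filter on small ratios left out HDAC5. With 3 ratios a comparison and no intensities, small differences and dim probes cannot be resolved.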

Other observations

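The deposited columns differed by dye orientation in how their numbers were written. The 6 arrays with the arrested class in Cy5 carried a median of 9 significant digits and at most 10, and the 6 arrays with BL in Cy5 carried a median of 6 and at most 6. This is a property of the columns and not of any probe.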
